A study of Mus musculus with 6 samples.

Results

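The chemokines examined here are 10 mouse genes, Ccl2, Ccl5, Ccl7, Cxcl1, Cxcl5, Cxcl9, Cxcl10, Cxcl12, Cxcl16 and Cx3cl1, out of 53700 genes listed in the expression table. They were chosen by symbol, and each symbol named 1 row of the table. SL4 is a luciferase-expressing mouse colorectal cancer (CRC) cell line. RNA-seq covered 3 pLV-Control libraries, which the labels describe as SL4 cells that do not overexpress SEMA6A, and 3 pLV-SEMA6A libraries from SL4 cells made to overexpress it stably with a lentivirus. The sources used here name no empty-vector virus for the control cells and describe a single pLV-SEMA6A line, so an effect of SEMA6A and a difference between cell lines cannot be told apart. They do not say whether the libraries of a group came from separate cultures, and p-values then measure only the spread between these libraries, which may be technical.

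Chemokines are small secreted or membrane-anchored proteins that steer leukocytes along concentration gradients through G protein-coupled receptors. In tumors, CXCL9, CXCL10 and CCL5 are known for drawing in activated T cells and NK cells, CCL2 and CCL7 for monocytes, and CXCL1 and CXCL5 for neutrophils. Their genes are grouped here by the signal that typically switches them on. Ccl5, Cxcl9 and Cxcl10 are interferon-induced, and Ccl5 and Cxcl10 also respond to NF-kB. Ccl2, Ccl7, Cxcl1 and Cxcl5 are classical NF-kB targets downstream of TNF and IL-1. Cxcl12 is constitutive in stromal cells, and Cxcl16 and Cx3cl1 encode chemokines that are anchored in the membrane and released by proteases. These groups are textbook roles that can overlap, and which signal acts on each gene in SL4 cells was not tested.

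Expression was deposited as TPM, a transcript abundance scaled by transcript length and to a common total per library. It allows levels to be compared between genes but keeps no read depth. Differences are log2 fold changes of TPM + 1, pLV-SEMA6A minus pLV-Control, from limma over the 12510 genes whose mean reached 1 TPM, and this scale understates the change of low genes. A gene was called at a Benjamini-Hochberg adjusted p under 0.05 together with an absolute log2 fold change over 0.5. By this rule pLV-SEMA6A had 1347 genes lower and 640 higher, and centring each library on its median turned this into 961 and 1002. Sema6a itself was listed at 0 throughout pLV-Control, and reached 98.7, 118 and 112 TPM in pLV-SEMA6A. The defining markers of colon epithelium were nearly absent in both groups: Epcam, Cdx1 and Cdx2 were listed at 0 in all 6 libraries, and 9 of the 10 epithelial markers had a mean under 1 TPM. Their sum was 1.91 to 2.82 TPM in pLV-Control and 0.53 to 1.33 TPM in pLV-SEMA6A, with Lgals4 lower. Of 12 leukocyte markers, Adgre1, Itgam, Cd3e and Cd8a were listed at 0 throughout and Ptprc reached 0.04 TPM. The summed leukocyte markers were at 13.2 to 14.4 TPM in pLV-Control and 16.2 to 18.7 TPM in pLV-SEMA6A, most of it Cd14, and the summed endothelial markers did not exceed 0.56 TPM. The 7 fibroblast markers, which are also mesenchymal genes, summed to 125 to 141 TPM in pLV-Control and 183 to 189 TPM in pLV-SEMA6A, with Col1a1 and Col3a1 higher and Pdgfra and Pdgfrb lower, and their part in the results below was not tested.

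Of the 10 chemokines, 6 were expressed and 5 of these fell in pLV-SEMA6A. The expressed genes, Ccl5, Cxcl10, Cxcl1, Ccl2, Ccl7 and Cx3cl1, were above 1 TPM in every library of both groups, so all of them would have been tested from either group alone. The other members go against the name of chemokines made by SL4 cells: Cxcl5 and Cxcl12 were listed at 0 in all 6 libraries, and Cxcl9 and Cxcl16 stayed under 1 TPM. Of all genes tested, 10.8% were called lower and 5.12% higher. By group of inducers, 2 of 3 interferon-induced chemokines were tested and both fell, and 3 of 4 NF-kB-induced chemokines were tested and all 3 fell, while the only tested gene of the constitutive or transmembrane group, Cx3cl1, was not called. No member was called higher by limma, and 0 were higher at an unadjusted p under 0.05.

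**Figure D1:**
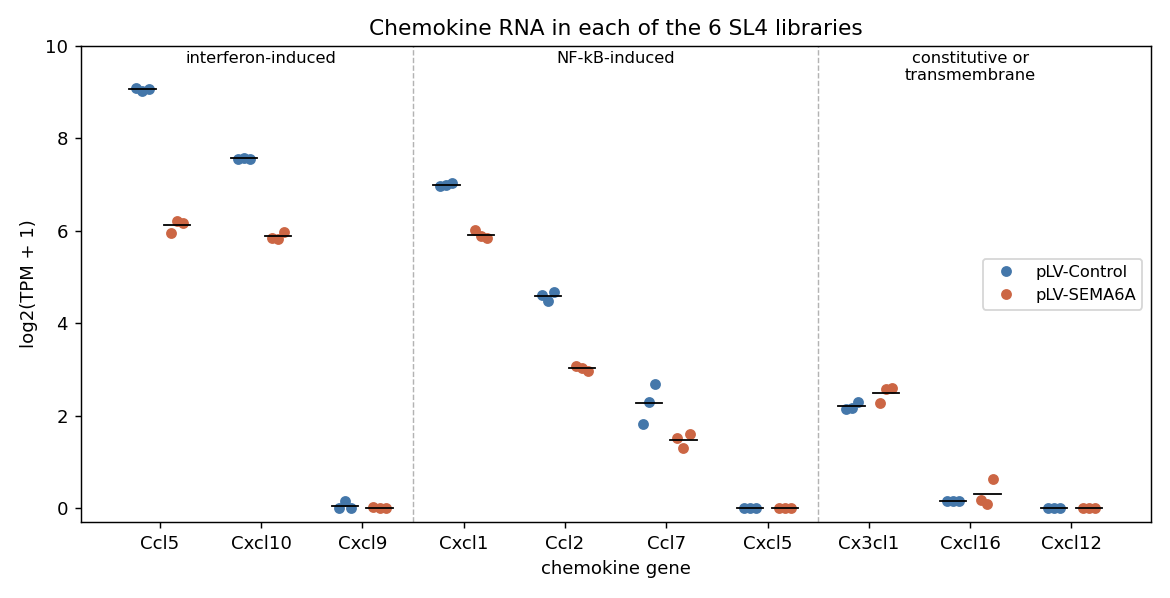
Level of each chemokine, as log2(TPM + 1), in the 3 pLV-Control libraries (blue points) and the 3 pLV-SEMA6A libraries (orange points), with black lines at the group means and dashed lines between the groups of inducers. The orange points lie below the blue points for Ccl5, Cxcl10, Cxcl1, Ccl2 and Ccl7, those of Cx3cl1 overlap, and Cxcl9, Cxcl5, Cxcl16 and Cxcl12 lie at or near 0.

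The genes fall into clusters on a few chromosomes. On GRCm38 in GENCODE M21, Ccl2 (82035571 to 82037453) and Ccl7 (82045712 to 82047525) lie 8.3 kb apart on chromosome 11, which also carries Ccl5 (83525778 to 83530518) and Cxcl16 (70453983 to 70459984). Chromosome 5 carries Cxcl5 (90759360 to 90761624), Cxcl1 (90891241 to 90893115), Cxcl9 (92321347 to 92328079) and Cxcl10 (92346638 to 92348889). Cxcl9 and Cxcl10 are only 18.6 kb apart, and their levels were far apart in every library. Cxcl12 lies on chromosome 6 (117168535 to 117181367) and Cx3cl1 on chromosome 8 (94772009 to 94782427). All 10 are protein-coding, and positions were matched by Ensembl identifier, since the build that the submitters name is mm39.

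The 250 bases before the start site were read from RefSeq promoter windows on GRCm38.p6, which held 5 of the 10 genes and not Ccl2, Ccl5, Ccl7, Cxcl5 or Cxcl16. The sequences of Cxcl10, Cxcl1 and Cxcl9 are shown because the first is interferon-induced, the second a classical NF-kB target, and the third the nearly silent neighbor of the first. Capitals mark matches, on either strand, to an NF-kB motif (GGG, any 3 bases, TTCC) or to the core of the interferon-stimulated response element, ISRE (GAAA, any 2 bases, GAAA).
Cxcl10 (chr5:92348890-92349139, minus strand): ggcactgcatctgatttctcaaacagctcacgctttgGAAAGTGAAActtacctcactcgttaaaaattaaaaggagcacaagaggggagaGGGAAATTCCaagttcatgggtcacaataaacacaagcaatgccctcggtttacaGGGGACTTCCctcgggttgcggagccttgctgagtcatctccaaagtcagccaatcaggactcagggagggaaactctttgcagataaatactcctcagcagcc
Cxcl1 (chr5:90890995-90891244, plus strand): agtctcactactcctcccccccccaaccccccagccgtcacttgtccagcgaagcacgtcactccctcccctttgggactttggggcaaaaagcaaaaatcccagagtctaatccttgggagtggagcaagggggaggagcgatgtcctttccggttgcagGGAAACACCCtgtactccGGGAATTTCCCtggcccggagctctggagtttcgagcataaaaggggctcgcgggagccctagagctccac
Cxcl9 (chr5:92328080-92328329, minus strand): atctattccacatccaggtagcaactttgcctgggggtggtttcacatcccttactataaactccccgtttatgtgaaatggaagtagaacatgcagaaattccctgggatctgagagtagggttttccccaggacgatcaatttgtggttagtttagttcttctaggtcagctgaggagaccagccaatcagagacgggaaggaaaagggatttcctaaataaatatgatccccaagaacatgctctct
The Cxcl10 window held the ISRE core from 213 to 204 bases before the start site and NF-kB matches from 159 to 150 and from 104 to 95. The Cxcl1 window held no ISRE core and 3 NF-kB matches, of which those from 71 to 62 and from 70 to 61 overlap on opposite strands, and the third lay from 89 to 80. The Cxcl9, Cxcl12 and Cx3cl1 windows held none of these letters, and no window of the 5 held the GAS motif TTCNNNGAA. Among 32851 RefSeq windows of this length, 2.98% held the ISRE core, 4.65% the NF-kB motif and 7.02% the GAS motif. A match describes letters only and not a bound factor.

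Among the interferon-induced chemokines, Ccl5 had the largest fall of the 10 genes. Ccl5, also known as RANTES, attracts T cells and monocytes. It was at 542, 519 and 540 TPM across pLV-Control, against 61.5, 73.1 and 71.5 TPM across pLV-SEMA6A. The lowest control library was thus several times the highest pLV-SEMA6A library. Mean levels were 533 ± 12.99 and 68.7 ± 6.32 TPM (SD, n = 3 each), and the log2 fold change was −2.94 (95% interval −3.10 to −2.78, limma adjusted p = 1.05e-06). The pLV-SEMA6A mean was 12.9% of the control mean. Only 20 of the 12510 tested genes fell further, and Ccl5 went from rank 252 to rank 2121 by mean TPM among all genes listed.

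Cxcl10, the ligand of Cxcr3 on activated T cells, fell less steeply than Ccl5. It was at 188, 190 and 188 TPM across pLV-Control, against 56.8, 56.0 and 61.8 TPM across pLV-SEMA6A, so the groups did not overlap and the control libraries were nearly alike. Mean levels were 188 ± 1.07 and 58.2 ± 3.14 TPM (SD, n = 3 each), and the log2 fold change was −1.68 (95% interval −1.78 to −1.58, adjusted p = 1.64e-06 from limma). The gene Art3 on the opposite strand overlaps Cxcl10, and 4.47% of the 31-base stretches of Cxcl10 occur in other genes, mainly in Art3. Art3 itself was listed at no more than 0.04 TPM.

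Cxcl9, the other interferon-induced ligand of Cxcr3, was hardly detected. It was listed at 0, 0.11 and 0 TPM across pLV-Control, against 0.02, 0 and 0 TPM across pLV-SEMA6A, with no separation of the groups. No fold change is given for it. A value near 0 in this table is not proof of absence. For example, mt-Co3, a mitochondrial gene that all cells use, had 0.33 TPM in replicate 2 of pLV-SEMA6A. Each of the other libraries had 140.6 TPM or more of mt-Co3. Whether the values of Cxcl9 are affected in a similar way was not tested, and 0.574% of its 31-base stretches occur in other genes.

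Cxcl1 was the most abundant of the NF-kB-induced chemokines. It attracts neutrophils through Cxcr2. It was at 124, 125 and 129 TPM across pLV-Control, against 63.6, 58.6 and 56.3 TPM across pLV-SEMA6A, and the groups did not overlap. The means of 126 ± 2.67 and 59.5 ± 3.74 TPM (SD, n = 3 each) gave a log2 fold change of −1.08 (95% interval −1.20 to −0.96, adjusted p = 1.75e-05 from limma). The pLV-SEMA6A mean was 47.0% of that of the control.

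Ccl2, which draws monocytes through Ccr2, was lower in level but fell further than Cxcl1. It was at 23.6, 21.3 and 24.6 TPM across pLV-Control, against 7.51, 7.18 and 6.81 TPM across pLV-SEMA6A, again without overlap. Mean levels were 23.1 ± 1.72 and 7.17 ± 0.35 TPM (SD, n = 3 each), with a log2 fold change of −1.56 (95% interval −1.73 to −1.39, adjusted p = 1.79e-05 from limma). Its interval does not meet that of Cxcl1 and overlaps that of Cxcl10.

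Ccl7, a monocyte chemokine next to Ccl2, was low in all libraries. It was at 2.56, 3.90 and 5.42 TPM across pLV-Control, against 1.88, 1.46 and 2.04 TPM across pLV-SEMA6A. The groups did not overlap, but the control libraries differed widely among themselves. The log2 fold change was −0.79 (95% interval −1.34 to −0.24, adjusted p = 0.0287 from limma). This call was fragile: with 1 library left out at a time it was kept in 1 of 6 fits, without pLV-Control replicate 1 (log2 fold change −1.01), and it was lost without pLV-Control replicate 2 (adjusted p = 0.0759), pLV-Control replicate 3 (0.0677) or pLV-SEMA6A replicates 1 (0.0629), 2 (0.0813) and 3 (0.0534), all from limma. Cxcl5, another neutrophil attractant, was listed at 0 in all 6 libraries.

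Cx3cl1 (fractalkine), which tethers monocytes and T cells that bear Cx3cr1, did not follow the falls. It was at 3.46, 3.50 and 3.91 TPM across pLV-Control, against 3.85, 5.02 and 5.08 TPM across pLV-SEMA6A, and the lowest pLV-SEMA6A library lay within the control range. Mean levels were 3.62 ± 0.25 and 4.65 ± 0.69 TPM (SD, n = 3 each), with a log2 fold change of 0.28 (95% interval −0.01 to 0.57, adjusted p = 0.0967 from limma). The interval excludes a fall of the size seen for the other 5 tested genes, and its upper end is slightly above the minimum for a call.

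Cxcl16, a membrane-anchored ligand of Cxcr6, was listed at 0.11, 0.12 and 0.12 TPM across pLV-Control, against 0.13, 0.06 and 0.56 TPM across pLV-SEMA6A. The values of the groups overlapped, and they are uncertain because 18.5% of its 31-base stretches also occur in other genes, mainly Zmynd15 on the opposite strand, which was listed at no more than 0.41 TPM. Cxcl12, the constitutive stromal chemokine, was listed at 0 throughout.

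**Figure D2:**
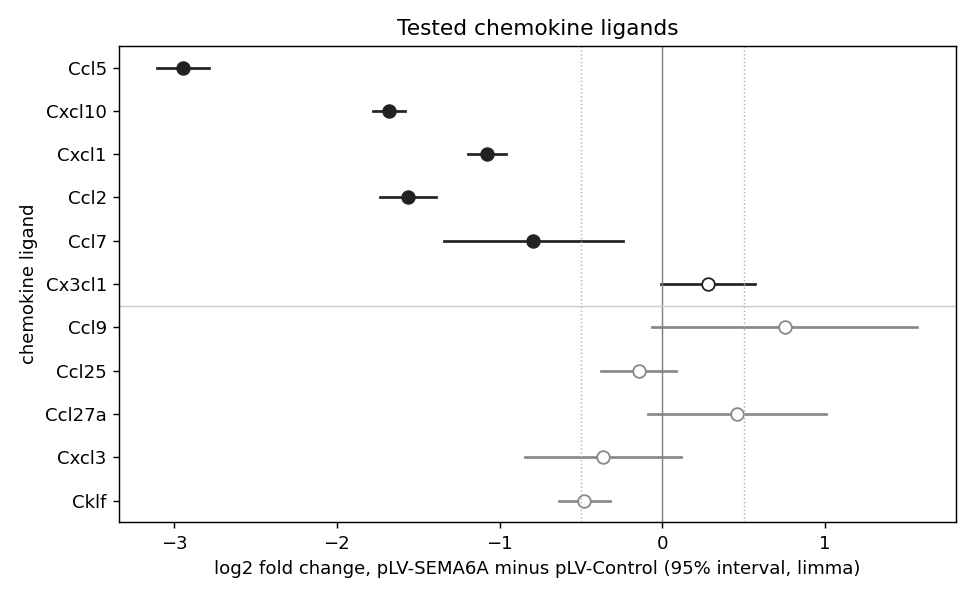
Log2 fold change of each tested chemokine ligand, pLV-SEMA6A minus pLV-Control, as points with 95% intervals from limma, the 6 tested members above the gray line and 5 other ligands below it. Filled points were called and open points were not, dotted lines mark the minimum of 0.5, and the filled points run from −2.94 for Ccl5 to −0.79 for Ccl7.

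Groups that did not overlap were common in these data, found in 58.5% of all tested genes, of which those lower in every pLV-SEMA6A library were 34.7% of all genes and those higher 23.8%. Of the 6 tested chemokines, 5 were lower without overlap. Over 3 libraries a group, the exact permutation test reaches no p under 0.1 (two-sided), and it gave 0.1 for these 5 genes and 0.2 for Cx3cl1. The adjusted p-values of limma use a spread estimated over many genes.

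The order of the 6 tested members and the mix of all ligand transcripts differed between the groups. In pLV-Control the order of these members was Ccl5, Cxcl10, Cxcl1, Ccl2, and then Ccl7 and Cx3cl1, whose libraries overlapped. In pLV-SEMA6A, the libraries of Ccl5, Cxcl1 and Cxcl10 overlapped within 56.0 to 73.1 TPM, followed by Ccl2, Cx3cl1 and Ccl7. Among the other ligands, Ccl25 (17.8 TPM) and Cklf (16.2 TPM) lay above Ccl2 there. The summed TPM of the 39 ligand genes that were looked up was 932, 910 and 947 in pLV-Control and 244, 244 and 246 in pLV-SEMA6A. The mean control sum was 3.80 times the mean pLV-SEMA6A sum. Ccl5 made up 57.4% ± 0.69 of the sum in pLV-Control and 28.1% ± 2.54 in pLV-SEMA6A (SD, n = 3 each). The share of Cxcl1 was 13.6% ± 0.23 in pLV-Control and 24.3% ± 1.63 in pLV-SEMA6A, and that of Cxcl10 was 20.3% ± 0.50 and 23.8% ± 1.15 (SD, n = 3 each). The share of Cxcl1 was therefore higher in pLV-SEMA6A although its level was lower.

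**Figure D3:**
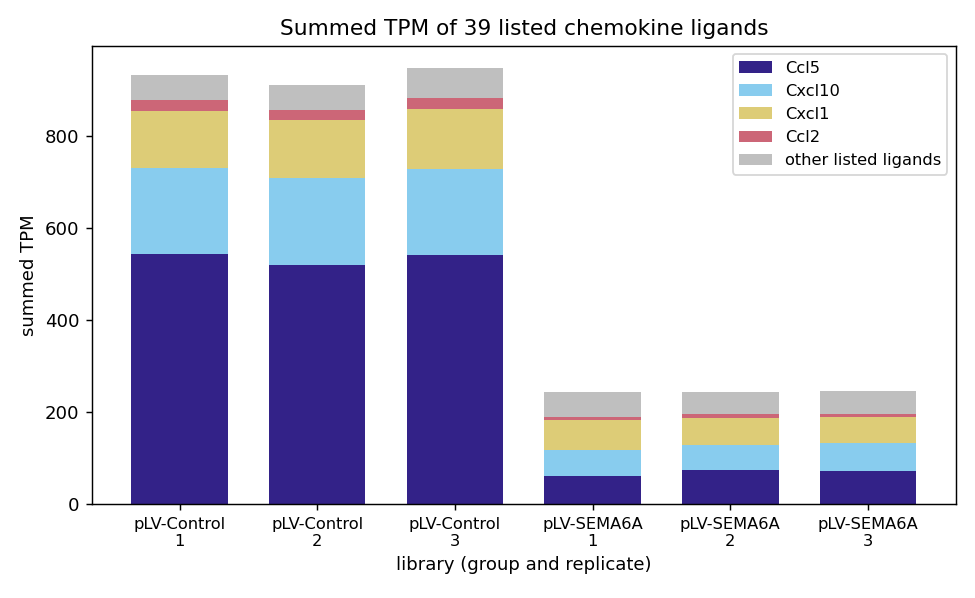
Summed TPM of 39 listed chemokine ligands in each library (bars start at 0), split into Ccl5, Cxcl10, Cxcl1, Ccl2 and all others. The pLV-Control bars reach 910 to 947 TPM and are mostly Ccl5, and the pLV-SEMA6A bars reach 244 to 246 TPM with similar shares of Ccl5, Cxcl10 and Cxcl1.

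Ratios between chemokines within a library were chosen after the falls were known, so they describe the same values on another scale and are given without a test. Ccl5 was 4.36, 4.13 and 4.17 times Cxcl1 in pLV-Control and 0.97, 1.25 and 1.27 times Cxcl1 in pLV-SEMA6A. Cxcl10 was 1.51, 1.51 and 1.45 times Cxcl1 in pLV-Control and 0.89, 0.96 and 1.10 times in pLV-SEMA6A. Neither ratio overlapped between the groups, and the same was true of Ccl5 over Cxcl10, Ccl5 over Ccl2, and Ccl2 over Cxcl1. The ratio of Cxcl10, interferon-induced, to Ccl2, NF-kB-induced, was 8.18 ± 0.66 in pLV-Control and 8.15 ± 0.81 in pLV-SEMA6A (SD, n = 3 each), and its libraries overlapped. The ratio of Ccl2 to Ccl7 also overlapped between the groups. By log2 fold change, the interferon-induced Ccl5 (−2.94) and Cxcl10 (−1.68) stood below the NF-kB-induced Ccl2 (−1.56), Cxcl1 (−1.08) and Ccl7 (−0.79), with overlapping 95% intervals for Cxcl10 and Ccl2.

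By a distance over the 6 libraries between log2(TPM + 1) values centred on each gene's mean, the genes most like Cxcl10 among 8183 others averaging 10 TPM or more were Gbp7 (0.09), Apol9b (0.14) and Lgals9 (0.15). Those most like Ccl2 were Casp4 (0.11), Ddx58 (0.17) and Parp11 (0.17). This likeness mostly reflects a similar log2 fold change, which was −1.71 for Gbp7 and −1.49 for Casp4.

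Few other chemokine ligands were expressed. Of 29 further ligand genes, 17 were listed at 0 in all libraries, 7 had a mean under 1 TPM and 5 were tested. By limma 0 of the 5 were called, against 15.9% of all genes, and 1, Cklf, was lower at an unadjusted p under 0.05. Cklf, a chemokine-like factor, was at 22.9, 21.9 and 24.4 TPM across pLV-Control, against 16.96, 16.7 and 15.1 TPM across pLV-SEMA6A, and its log2 fold change of −0.48 (limma adjusted p = 0.00139) just missed the minimum of 0.5. It passed the minimum without pLV-Control replicate 2 (−0.51) and without pLV-SEMA6A replicate 1 (−0.51). Without pLV-Control replicate 3 the monocyte attractant Ccl9 was called higher (1.14), and without pLV-SEMA6A replicate 2 the skin-associated Ccl27a was (0.68). Ccl25, known for guiding gut-homing T cells, was at 19.4, 18.0 and 22.1 TPM across pLV-Control, against 19.7, 16.7 and 17.01 TPM across pLV-SEMA6A, with overlap (log2 fold change −0.15, 95% interval −0.37 to 0.08). For these 5 genes the median log2 fold change was −0.15, that of the 6 tested members −1.32, and that of all genes tested −0.06.

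The receptors that would let SL4 cells respond to these chemokines were scarce. None of 23 receptor genes reached a mean of 1 TPM over the 6 libraries, and 10 were listed at 0 in every library, among them Cxcr3, Ccr2 and Cxcr4, the receptors of Cxcl10, Ccl2 and Cxcl12. Cxcr2 stayed between 0.15 and 0.42 TPM, Cxcr6 reached 0.22 TPM and Cx3cr1 0.12 TPM. All 23 lay under the filter on low values. Without that filter the lowest adjusted p of a receptor from limma was 0.0610, for Ccrl2, with a log2 fold change of −0.80.

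Genes of the signals that typically switch on chemokines were compared next, starting with interferon signaling. Whether these genes have a part in the falls of the chemokines was not tested. Of 15 genes of this list, 13 were tested. Of these, 7 were called lower and 0 higher, where 10.8% of all tested genes were called lower and 5.12% higher. By an adjusted p under 0.05 alone, 12 were lower and 1 higher, a rule that 47.6% of all genes passed, 28.2% lower and 19.5% higher. The list had a median log2 fold change of −0.64, against −0.06 for all tested genes. Irf7, which transcribes type I interferon and chemokine genes, was at 212, 211 and 217 TPM across pLV-Control, against 25.2, 24.0 and 21.6 TPM across pLV-SEMA6A, and its log2 fold change was −3.13 (limma adjusted p = 5.01e-07). Stat2 and Irf9, which act together downstream of the type I interferon receptor, were also lower, with log2 fold changes of −1.71 for Stat2 and −1.21 for Irf9. Irf1, which acts downstream of interferon gamma on Cxcl9 and Cxcl10, had one of −1.13 (27.0 ± 2.13 and 11.8 ± 1.27 TPM, SD, n = 3 each), and the receptor kinase Tyk2 one of −0.88. Of the interferon genes themselves, only Ifnb1 and Ifng were looked up, and both were listed at 0.25 TPM or less.

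In the NF-kB list, the subunit gene Relb and 4 genes of feedback and regulation fell. Of 23 genes, 18 were tested, and 5 were called lower and 0 higher, where 10.8% of all tested genes were called lower and 5.12% higher. The list had a median log2 fold change of −0.13, against −0.06 for all tested genes. The subunit Rela was at 43.1, 50.0 and 49.0 TPM across pLV-Control, against 45.1, 50.4 and 46.5 TPM across pLV-SEMA6A, with overlap and a log2 fold change of 0.00 (95% interval −0.17 to 0.17). Nfkb1 had a log2 fold change of 0.11 and Nfkb2 one of −0.15, neither past the minimum of 0.5. The genes called were Nfkbia (−0.65), Relb (−0.61), Nfkbiz (−0.55), Tnfaip3 (−0.54) and Nfkbie (−0.53), of which Nfkbia, Tnfaip3 and Nfkbie encode inhibitors that NF-kB itself induces. Nfkbia was at 47.2, 47.9 and 51.9 TPM across pLV-Control, against 30.0, 29.0 and 33.7 TPM across pLV-SEMA6A. The count of 5 became 2 of 18 with median-centred libraries, where 961 of all 12510 genes were lower, 3 with quantile normalization and 3 without pLV-Control replicate 1, where Nfkbie and Tnfaip3 were lost. Nfkbie was also lost without pLV-Control replicate 2 (adjusted p = 0.0534 from limma) or pLV-SEMA6A replicate 3 (−0.48), Nfkbiz without pLV-Control replicate 3 (−0.43) and Tnfaip3 without pLV-SEMA6A replicate 2 (−0.45). The cytokines that commonly start this pathway, Tnf, Il1a and Il1b, were at 0.23 TPM or less in every library.

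Most genes that shed, display or degrade chemokines and their mRNAs were not called. Of 19 genes, 17 were tested, with 1 called lower and 1 higher, where 10.8% of all tested genes were called lower and 5.12% higher. The list had a median log2 fold change of 0.01, against −0.06 for all tested genes. By an adjusted p under 0.05 alone, 5 were lower and 5 higher, where 28.2% of all tested genes were lower and 19.5% higher. The largest difference that was not called was that of Gpc1 (log2 fold change 0.47). Zfp36, whose product destabilizes AU-rich mRNAs such as that of Cxcl1, fell to 8.09 ± 0.36 TPM in pLV-SEMA6A against 12.2 ± 0.42 TPM in pLV-Control (SD, n = 3 each), with a log2 fold change of −0.54 (limma adjusted p = 0.000659). Its relative Zfp36l2 rose to 121 ± 2.18 TPM against 83.6 ± 1.86 TPM (SD, n = 3 each), with a log2 fold change of 0.53 (limma adjusted p = 4.31e-05). Under quantile normalization neither passed the minimum of 0.5, with log2 fold changes of −0.40 and 0.50, and Zfp36 also missed it with median-centred libraries (−0.45). Mmp14, a membrane protease that can trim chemokines, was the most abundant protease of the list, with a log2 fold change of 0.01 (95% interval −0.09 to 0.11). Adam10 and Adam17, which release Cx3cl1 and Cxcl16, had log2 fold changes of 0.20 and 0.07.

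**Figure D4:**
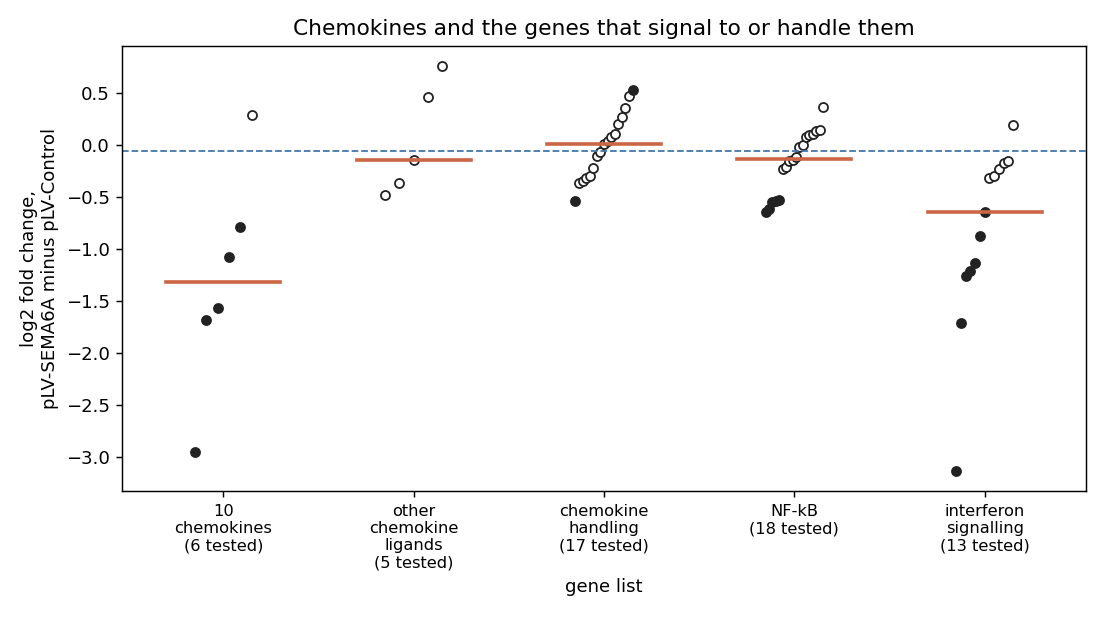
Log2 fold change, pLV-SEMA6A minus pLV-Control, of each tested gene in the 10 chemokines and 4 further lists, with filled points called and open points not called. Orange lines are list medians, from −1.32 for the chemokines to 0.01 for the handling genes, and the blue dashed line is the median of all tested genes at −0.06.

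The falls of the 4 main chemokines kept their call under all 14 alternative settings. The log2 fold change stayed between −2.99 and −2.85 for Ccl5, −1.72 and −1.59 for Cxcl10, −1.68 and −1.44 for Ccl2, and −1.13 and −0.98 for Cxcl1. Cx3cl1 lay between 0.23 and 0.47, with adjusted p-values from limma of 0.0210 to 0.237, and was never called.

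**Figure D5:**
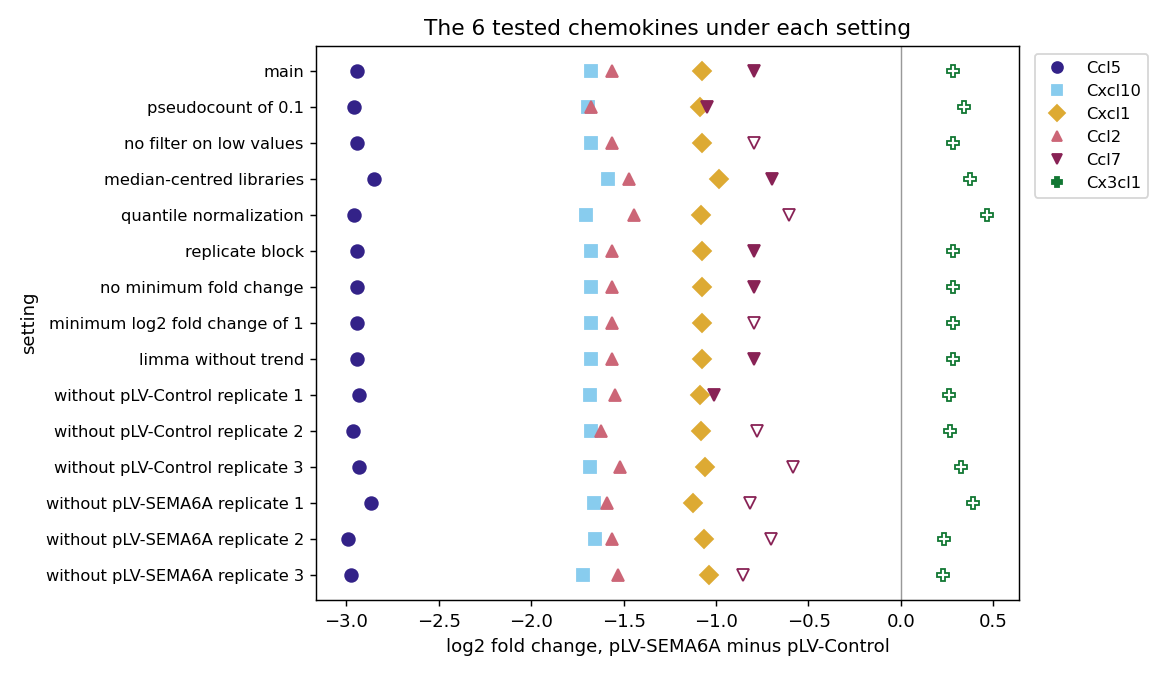
Log2 fold change of the 6 tested chemokines under the main setting and 14 alternatives (rows), with filled symbols called and open symbols not called. Ccl5, Cxcl10, Ccl2 and Cxcl1 stay filled in every row, Ccl7 is open in 8 of the 14 alternatives and Cx3cl1 is open throughout.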

How the data were processed

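RNA-seq of SL4 cells compared 3 pLV-Control with 3 pLV-SEMA6A libraries, grouped by their titles. The authors captured poly-A mRNA, fragmented it, made randomly primed cDNA and used an Illumina sequencer. The deposited table holds TPM with 2 decimals for each library, and the authors' mean TPM of each group, which was not used. The submitters' processing notes name HISAT, Bowtie2, RSEM and mm39 without versions, and the annotation and strand setting are not given in the sources used here. TPM keeps no depth, so no read counts, intervals on counts or detection limits were derived.

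log2(TPM + 1) was fitted with limma 3.58.1 (trend option) in R 4.3.3, with a term for group and no other, for the 12510 genes whose mean reached 1 TPM. Adjustment was by Benjamini and Hochberg over all tested genes. The thresholds for calls are those the supplement gives, with limma, for differentially expressed genes in its functional enrichment analysis. For the RNA-seq of these cells the supplement names another method, DESeq2, so the calls here do not repeat the authors' analysis. The steps were tested on simulated data. The genes named are the 10 members, the called genes of each list (at most 6, by absolute log2 fold change) and its 2 most abundant genes, the receptors of the members, and the 3 genes most like Cxcl10 and Ccl2. Other genes were named after their values were seen, and some genes that the rule takes in are not reported here. The members and lists were chosen with earlier results of these data known. Positions and shared 31-base stretches come from GENCODE M21, which holds 52093 of the listed identifiers (97.0%), and promoter windows from RefSeq.

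Alternatives were 0.1 as the pseudocount, all genes above 0 in place of the filter, median-centred and quantile-normalized libraries, the replicate number as a block, other minimum fold changes, limma without the trend option, and leaving out each library in turn.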

Additional observations from a re-analysis of the deposited data

How the results depend on the processing

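The number of members called lower was 5, and 4 or 5 under the alternatives. Ccl7 kept its direction and lost its call without the filter on low values (−0.79, adjusted p = 0.0755 from limma), with quantile normalization (−0.60) and with a minimum log2 fold change of 1 (−0.79). With single libraries left out it ranged from −1.01 to −0.59. Without a minimum fold change, 2436 genes were higher and 3523 lower, and 1 other ligand, 10 handling, 9 NF-kB and 13 interferon signaling genes were called. With a minimum of 1, 81 genes were higher and 304 lower, and 0 handling and 0 NF-kB genes were called. Median-centred libraries gave 1002 higher genes and 2 NF-kB genes, and quantile normalization 1 handling and 3 NF-kB genes. A pseudocount of 0.1 called 1 other ligand. Leaving out single libraries gave 0 to 1 other ligands and 3 to 5 NF-kB genes. Mmp14, near 0, was at −0.034 with quantile normalization and from −0.026 to 0.046 with single libraries left out. The cause of these changes was not tested.

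With the replicate block, 623 genes were higher and 1301 lower, and the same number of members, 5, were lower. Same-numbered libraries showed no shared deviation from the group means (correlations −0.08 to −0.02 over 3 pairs), and 0 of the 6 libraries correlated best with its own number. TPM keeps no depth, so the precision of the low genes, Ccl7 and Cx3cl1 among them, rests on the spread between libraries alone.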

Other observations

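Some chemokine genes under the filter had libraries that did not overlap between the groups, and they are named here after their values were seen. Such separation was found in 58.5% of all tested genes, and its share among genes under the filter was not counted. Without the filter, the adjusted p from limma was 0.0610 for Ccrl2, 0.0635 for Ackr3, 0.0816 for Cxcl11 and 0.104 for Ccr10, so none passed the threshold. Ccrl2, an atypical receptor that binds the chemoattractant chemerin, was listed at 0.44, 1.10 and 1.68 TPM across pLV-Control, against 0.19, 0.05 and 0.22 TPM across pLV-SEMA6A. Cxcl11, the remaining interferon-induced ligand of Cxcr3, was listed at 0.04, 0.09 and 0.13 TPM across pLV-Control, against 0 in all 3 pLV-SEMA6A libraries. Ccr10 was at 0.98, 0.64 and 0.84 TPM across pLV-Control, against 0.32, 0.45 and 0.58 TPM across pLV-SEMA6A. Ackr3, a scavenger receptor for Cxcl12, was at 0.24, 0.17 and 0.17 TPM across pLV-Control, against 0.31, 0.51 and 0.41 TPM across pLV-SEMA6A. The reads behind values this low are unknown.

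Ccl9, a monocyte-attracting ligand, was at 1.05, 0.98 and 3.50 TPM across pLV-Control, against 4.37, 3.07 and 3.01 TPM across pLV-SEMA6A. Its log2 fold change of 0.75 had a wide 95% interval of −0.06 to 1.57 and an adjusted p of 0.111 from limma, and the groups overlapped through pLV-Control replicate 3. Cxcl3, from the same chromosome 5 cluster as Cxcl1, was at 1.39, 1.32 and 1.47 TPM across pLV-Control, against 0.47, 1.19 and 1.00 TPM across pLV-SEMA6A, with a log2 fold change of −0.36 and an adjusted p of 0.180 from limma.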
